A study of Mus musculus with 6 samples.

Results

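The 8 genes described here, called regulators below, encode the transcription factors NRF1 and NRF2 and proteins that act on, with or against them. They are Nfe2l1, which encodes NRF1, Nfe2l2, which encodes NRF2, and Ddi2, Ngly1, Keap1, Mafg, Mafk and Bach1. NRF1 drives the recovery of proteasome gene expression known as the bounce-back response. Every non-control probe whose gene name on the array is one of these 8 was taken, which gave 12 probes among the 55681 on the array, and 8 of 32275 gene names. The samples were sorted muscle satellite cells, the resident stem cells that repair muscle fibres, from mice of the strain C57BL6. In the knockout group, 3 mice had a knockout of Rpt3 that the labels call specific to satellite cells, and the control group held 3 control mice. RNA of each mouse was hybridized to 1 single-colour Agilent array after amplification from 5 ng of total RNA, so a group is 3 arrays. The labels used here do not give the promoter that drives the deletion, the deleted part of the gene, the genotype of the controls, the age of the mice or the time since deletion.

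Rpt3 is the product of Psmc4 and an ATPase of the 19S regulatory particle, which unfolds ubiquitin-tagged proteins and feeds them into the 20S core of the proteasome. NRF1 is made in the endoplasmic reticulum membrane and is normally extracted and destroyed by the proteasome. When the proteasome is impaired, NRF1 is deglycosylated by NGLY1, cleaved by the protease DDI2, and enters the nucleus, where it binds antioxidant response elements of proteasome genes. NRF2, its relative, is held by KEAP1 for degradation and activates redox genes through the same elements. Both bind DNA as heterodimers with small Maf proteins such as MAFG and MAFK, and BACH1 competes for these partners and represses some of the same genes. Much of this regulation acts on the proteins, which the arrays do not measure.

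Psmc4, the targeted gene, was measured with a probe that crosses a splice junction and lies at chr7:28827132-28827373 (mm9, minus strand). Its normalized log2 signal, which is the processed signal divided by its 75th percentile on that array and then put on the log2 scale, was 2.004, 2.02 and 1.52 in knockouts 1, 2 and 3 and 2.89, 2.58 and 2.84 in controls 1, 2 and 3. Every knockout array lay below every control array. The difference was -0.92 (SE 0.24, n = 3 and 3, adjusted p = 0.412, limma), which is 52.8% of the control level. Whether this probe lies in the deleted part is not stated. Between 44.2% and 57.9% of probes were well above background, with the lowest share in knockout 3. That array also stood apart from the other 5 on the first principal component, at 70.3 against a range of -23.7 to -4.25. Of 9 satellite cell markers, 9 were well above background on each control array and 6 to 8 on the knockout arrays. Their knockout mean was higher for 4 and lower for 5, none past the threshold (limma). At an unadjusted p under 0.05, 3 were lower and 0 higher, against 4.45% and 2.77% of all genes tested (limma). Their mean centred log2 signal overlapped, at -0.46 to -0.08 in knockouts and -0.26 to 0.52 in controls. Their summed signal, as multiples of the 75th percentile, did not overlap, at 108 to 123 in knockouts and 137 to 192 in controls. A sum of linear signals weighs the brightest gene most. Here that was Cxcr4, with a mean log2 signal of 6.27 in knockouts and 6.91 in controls, so the sum mainly describes Cxcr4. The 6 markers of fibro-adipogenic progenitors, another resident cell type of muscle, were above background on all arrays. Their summed signal, as multiples of that percentile, was 378 to 432 in knockouts and 479 to 812 in controls. Their mean centred log2 signal overlapped, at -0.47 to 0.12 in knockouts and -0.15 to 0.33 in controls. The brightest gene in their sum was Col1a1, with a mean log2 signal of 8.10 in knockouts and 8.81 in controls. Red blood cell markers are given further below. The summed signals of the endothelial, macrophage, neutrophil, T cell, muscle fibre and Schwann cell markers overlapped between the groups. For endothelial markers the sum was 26.8 to 68.7 in knockouts and 26.2 to 89.2 in controls. For neutrophil markers it was 568 to 901 in knockouts and 650 to 677 in controls. The part of any of these sets of markers in the results was not tested. In sorted cells measured in bulk, fewer cells of a type and less RNA per cell cannot be told apart.

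Each regulator is represented by probes of 60 bases. The sequences that follow, as the array's annotation gives them, are those of the targeted gene and of the NRF1 and KEAP1 probes, shown because they define which transcript stretches stand for the deleted subunit, for the factor with the lowest difference and for the NRF2 inhibitor. The Keap1 probe, like that of Psmc4, crosses a splice junction.
Psmc4: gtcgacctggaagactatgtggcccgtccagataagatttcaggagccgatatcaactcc
Nfe2l1: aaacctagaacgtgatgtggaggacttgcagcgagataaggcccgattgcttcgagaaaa
Keap1: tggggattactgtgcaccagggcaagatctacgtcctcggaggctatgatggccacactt
On mm9, the Nfe2l1 probe lies at chr11:96680710-96680769 (minus strand) and the Keap1 probe spans chr9:21035292-21035732 (minus strand). The Nfe2l2 probe lies at chr2:75513771-75513830 (minus strand), the Ngly1 probe at chr14:17144174-17144233 (plus strand), the Mafk probe at chr5:140278221-140278280 (plus strand) and the Bach1 probe at chr16:87733532-87733591 (plus strand). Ddi2 has 2 probes whose starts are 64 bases apart, the upstream one at chr4:141239766-141239825 (minus strand). Mafg has 4 probes, of which 3 start within 647 bases of each other and the fourth, assigned to another transcript, starts 4101 bases downstream of the first. The longest run of bases shared by probes of different regulators was 8, between Keap1 and Ddi2.

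None of the tested regulators differed between knockout and control beyond the threshold. All but Ngly1 could be tested, and 0 of these 7 had an adjusted p under 0.05 (limma, Benjamini-Hochberg over all 17952 genes). At an unadjusted p under 0.05 the count was also 0 of 7, and an ordinary 2-sample test called 0. Over all genes tested, the percentage called was 0%, with 2.77% higher and 4.45% lower in knockout at an unadjusted p under 0.05. The knockout and control arrays overlapped for all 7 regulators, whereas 4.86% of all genes had every knockout array above every control array and 5.94% had every knockout array below. The means were higher in knockout for 3 regulators (Nfe2l2, Mafg and Mafk) and lower for 4, and the median difference was -0.09 against 0.04 over all genes tested.

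**Figure D1:**
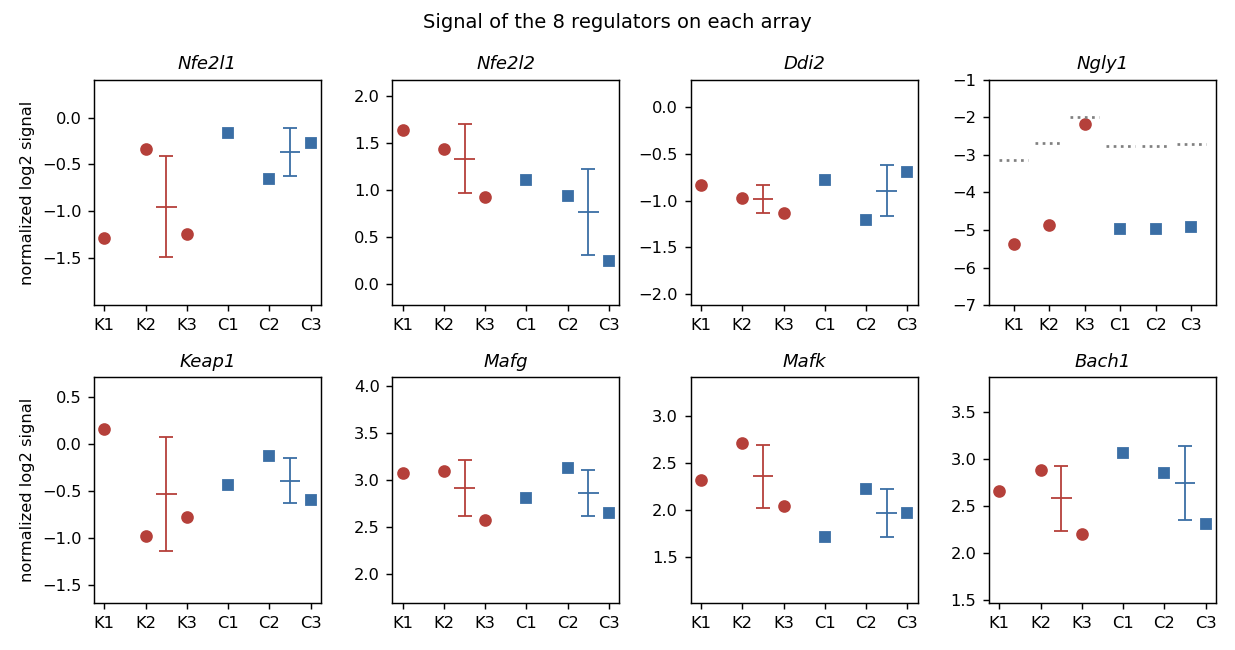
Normalized log2 signal (vertical axis) of the 8 regulators on knockout arrays K1 to K3 (circles) and control arrays C1 to C3 (squares), with group mean and SD beside the points; every panel but that of Ngly1 spans at least 2.4 log2 units. In all 7 tested genes the groups overlap, and all 6 Ngly1 points lie below the dotted lines, which mark the lowest signal well above background on each array.

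Under the main processing, the 2 transcription factors had differences of nearly equal size and opposite sign. The sizes were unequal under some of the alternatives given below. For Nfe2l1, the log2 signal was -1.28, -0.33 and -1.24 in knockouts 1, 2 and 3 and -0.17, -0.66 and -0.27 in controls 1, 2 and 3. Knockouts 1 and 3 lay below all controls, and knockout 2 lay among them. The difference was -0.58 (SE 0.31, n = 3 and 3, 95% interval -1.31 to 0.14, adjusted p = 0.822, limma), or 0.668-fold. An exact 2-sided permutation test over the arrays gave p = 0.2, where 3 arrays against 3 cannot go below 0.1.

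For Nfe2l2, the log2 signal was 1.64, 1.44 and 0.93 in knockouts 1, 2 and 3 and 1.11, 0.94 and 0.25 in controls 1, 2 and 3. Knockouts 1 and 2 lay above all controls, while knockout 3 lay below controls 1 and 2. The difference was 0.57 (SE 0.31, n = 3 and 3, 95% interval -0.15 to 1.28, adjusted p = 0.830, limma), or 1.48-fold, with an exact permutation p of 0.3. Of 3 tested red blood cell markers, Hba-a1 was higher on every knockout array than on any control array (adjusted p = 0.347, limma). Hbb-bt was too (adjusted p = 0.532, limma), but it was well above background on 3 of 3 knockout and 1 of 3 control arrays. It entered the test through the knockout group alone, and the mean below includes it. Slc4a1 differed by -0.0078 with overlapping groups. The mean centred log2 signal of the 3 (of 4 markers used here) was 0.97, 0.80 and 0.53 in the knockouts and -0.09, -0.71 and -1.50 in the controls. The summed signal of all 4 was 5.70 to 10.1 in knockouts and 1.81 to 4.10 in controls. The fourth, Alas2, which encodes the erythroid enzyme that starts haem synthesis, was not well above background on all arrays of either group. The part of these markers in the result was not tested.

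The processing of NRF1 was represented by Ddi2 and Ngly1. Ddi2, the protease that cleaves NRF1, had a log2 signal of -0.84, -0.98 and -1.13 in knockouts 1, 2 and 3 and of -0.79, -1.20 and -0.70 in controls 1, 2 and 3. All 3 knockout values lay within the control range. The difference was -0.09 (SE 0.23, 95% interval -0.62 to 0.45, adjusted p = 0.985, limma), and the other Ddi2 probe gave 0.01. Ngly1, the glycanase that strips sugars from NRF1, was not well above background on any array. Its processed signal was 2.70, 2.76 and 14.1 in knockouts 1, 2 and 3 and 2.85, 2.83 and 2.72 in controls 1, 2 and 3. The lowest signal well above background was 12.5, 12.6 and 16.1 on those knockout arrays and 13.3, 13.2 and 12.5 on those control arrays, so no fold change was taken.

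Of 15 other genes of NRF1 extraction, processing and turnover, 13 were tested. None had an adjusted p under 0.05 (limma), 4 were higher and 1 was lower at an unadjusted p under 0.05, and the median difference was -0.04. In each direction, the 2 genes with the lowest p were the following. Nploc4, a cofactor of the p97 segregase that pulls NRF1 out of the membrane, differed by 1.24 (SE 0.26, adjusted p = 0.315, limma) and Vcp, which encodes p97, by 1.03 (SE 0.24, adjusted p = 0.347, limma). Every knockout array lay above every control array for both. Btrc, a substrate receptor of a ubiquitin ligase that targets nuclear NRF1 and NRF2, differed by -0.62 (SE 0.25, adjusted p = 0.656, limma), although its other tested probe gave 0.08. Sel1l, a scaffold of the membrane-bound ubiquitin ligase complex that acts in the endoplasmic reticulum, differed by -0.36 (SE 0.25, adjusted p = 0.920, limma), and by -0.14 without knockout 3.

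Keap1, the adaptor that presents NRF2 for ubiquitination, had a log2 signal of 0.15, -0.98 and -0.78 in knockouts 1, 2 and 3 and of -0.44, -0.14 and -0.60 in controls 1, 2 and 3. Knockout 1 was the highest of the 6 arrays and the other 2 knockouts were the lowest. The difference was -0.14 (SE 0.33, 95% interval -0.91 to 0.62, adjusted p = 0.985, limma), with an exact permutation p of 0.7. Of 14 other genes of NRF2 turnover and KEAP1 binding, 12 were tested, none had an adjusted p under 0.05 (limma), and 1 was higher and 1 lower at an unadjusted p under 0.05, with a median of 0.02. The higher one was Sqstm1, and the lower one was Btrc, which is also in the NRF1 list and described above. Sqstm1, which encodes the autophagy receptor p62 that binds KEAP1, differed by 0.79 (SE 0.21, adjusted p = 0.420, limma), with every knockout array above every control array. Its other tested probe gave -0.50, so the probes of Sqstm1 disagree in sign. Rbx1, the RING subunit of cullin ligases, differed by 0.56 (SE 0.28; 0.35 without knockout 1) and Gsk3b, a kinase that marks NRF2 for degradation, by -0.45 (SE 0.22). Each of these 2 genes also had a tested probe of the opposite sign, at -0.15 for Rbx1 and 0.82 for Gsk3b.

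The small Maf partners were Mafk and Mafg, short factors with no activation domain of their own. The log2 signal of Mafk was 2.32, 2.71 and 2.05 in knockouts 1, 2 and 3 and 1.72, 2.23 and 1.97 in controls 1, 2 and 3. Knockouts 1 and 2 lay above all controls and knockout 3 lay between controls 3 and 2. The difference was 0.39 (SE 0.26, 95% interval -0.21 to 0.99, adjusted p = 0.908, limma), or 1.31-fold, with an exact permutation p of 0.2.

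Mafg, at its brightest probe, had a log2 signal of 3.07, 3.09 and 2.57 in knockouts 1, 2 and 3 and of 2.80, 3.12 and 2.65 in controls 1, 2 and 3. The lowest and the highest of the 6 values were knockout 3 and control 2. The difference was 0.05 (SE 0.25, 95% interval -0.53 to 0.63, adjusted p = 0.988, limma). The other 3 probes gave 0.21, 0.07 and 0.51, the last from the probe farthest downstream, so all 4 Mafg probes had a higher knockout mean, with intervals that include 0.

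Bach1, the repressor that competes with NRF2 for small Maf proteins, had a log2 signal of 2.66, 2.89 and 2.21 in knockouts 1, 2 and 3 and of 3.07, 2.86 and 2.31 in controls 1, 2 and 3. The values of the groups interleave, with knockout 3 the lowest and control 1 the highest. The difference was -0.16 (SE 0.29, 95% interval -0.83 to 0.51, adjusted p = 0.985, limma).

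**Figure D2:**
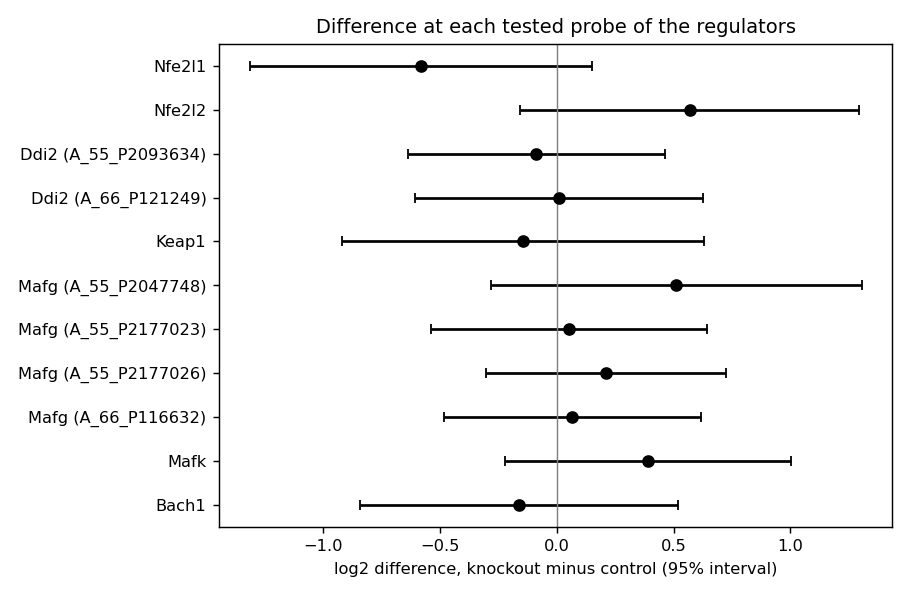
Log2 difference between the means of 3 knockout and 3 control arrays (horizontal axis) at each of the 11 tested probes of the regulators (rows), with its 95% interval from limma over every probe. All 11 intervals include 0, and the points run from -0.58 for Nfe2l1 to 0.57 for Nfe2l2.

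The other CNC and small Maf factors all had a lower knockout mean, and none passed the test. Nfe2l3, which encodes the related factor NRF3, differed by -1.23 (SE 0.45, adjusted p = 0.599, limma). Nfe2, the erythroid member of the family, differed by -0.54 (SE 0.38, adjusted p = 0.920, limma). It was well above background on 1 of 3 knockout and 3 of 3 control arrays, so it entered the test through the control group alone. Without knockout 1, the differences were -0.79 for Nfe2l3 and -0.097 for Nfe2. Bach2, the relative of Bach1, differed by -0.27 (SE 0.38) and Maff, the other small Maf gene, by -0.05 (SE 0.21). The median of these 4, with Nfe2 included, was -0.40.

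The lists of genes that NRF1 and NRF2 are known to activate had medians above that of the regulators. All 14 genes of the 20S core had a higher knockout mean, 13 at an unadjusted p under 0.05, and the median difference was 1.05. All 18 genes of the 19S particle other than Psmc4 also had a higher mean, 16 at an unadjusted p under 0.05, with a median of 0.84. None of either list had an adjusted p under 0.05 (limma). With the slide row as a block, which rests on knockout 3 alone, both medians were 0.64. Psmb3 and Psma1, subunits of the core, differed by 1.64 (SE 0.28, adjusted p = 0.202, limma) and 1.57 (SE 0.28, adjusted p = 0.230, limma). Psmc6, an ATPase beside Rpt3, differed by 1.32 (SE 0.22, adjusted p = 0.200, limma) and Psmd3, a subunit of the lid, by 1.56 (SE 0.30, adjusted p = 0.239, limma). With array weights these 4 passed the threshold, at adjusted p of 0.0192, 0.0192, 0.0192 and 0.0242 (limma). That setting called 225 of 17952 genes, against 0 as reported, and these 4 were named for the smallest p in their lists.

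Of 23 NRF2 redox targets on the array, 20 were tested. Of these, 17 had a higher and 3 a lower knockout mean, 6 were higher and 0 lower at an unadjusted p under 0.05, 0 had an adjusted p under 0.05 (limma), and the median was 0.41. Blvrb, a biliverdin and flavin reductase that is abundant in red blood cells, differed by 2.10 (SE 0.38, adjusted p = 0.237, limma). Hba-a1, a haemoglobin gene of the red blood cell list, differed by 1.88 (SE 0.44, adjusted p = 0.347, limma), and the part of such cells in the value of Blvrb was not tested. Me1, the cytosolic malic enzyme that makes NADPH, differed by 1.62 (SE 0.43, adjusted p = 0.428, limma). The 2 with the smallest p among those with a lower mean were Gsta3, a glutathione transferase, at -0.38 (SE 0.48) and Taldo1, an enzyme of the pentose phosphate pathway, at -0.06 (SE 0.28).

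Of 8 genes that BACH1 is known to repress, 6 were tested and 0 had an adjusted p under 0.05 (limma), with 2 higher at an unadjusted p under 0.05 and a median of 0.17. Most of this list is shared with the NRF2 targets. Txnrd1, a thioredoxin reductase, differed by 0.53 (SE 0.21, adjusted p = 0.639, limma) and Ftl1, the ferritin light chain, by 0.54 (SE 0.22, adjusted p = 0.648, limma), each with every knockout array above every control array. Slc40a1, the iron exporter ferroportin, differed by -0.08 (SE 0.34). For each of these lists the share of genes called over all genes, given above, is the background, and no test of a list was made.

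**Figure D3:**
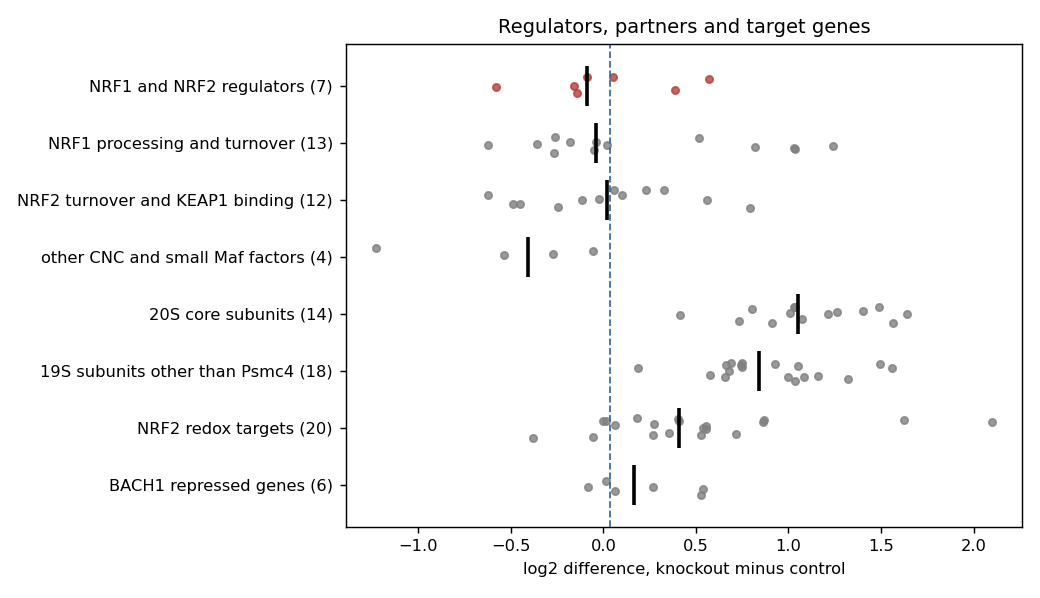
Log2 difference, knockout minus control (horizontal axis), of each tested gene (points) of the regulators and of 7 lists (rows, with the number tested), with the median of each list as a black bar and the median of all 17952 genes as a dashed line. The regulators scatter on both sides of the dashed line, while all 20S and 19S points lie to its right.

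The factors and their targets were also set side by side on each array. Centred on its own mean over the 6 arrays, the mean of the 14 20S genes was 0.85, 0.70 and 0.12 in knockouts 1, 2 and 3 and -0.41, -0.67 and -0.59 in controls 1, 2 and 3. All knockouts lay above all controls, with knockout 3 the nearest. The centred Nfe2l2 signal was 0.59, 0.39 and -0.12 in those knockouts and 0.06, -0.11 and -0.80 in those controls. The centred Nfe2l1 signal was -0.62, 0.33 and -0.58 in the knockouts and 0.49, 0.00 and 0.38 in the controls. The mean of the 20 NRF2 targets was 0.35, 0.35 and 0.04 in the knockouts and 0.05, -0.30 and -0.48 in the controls. Nfe2l2 and both target means had knockout 3 as the lowest knockout array, whereas Nfe2l1 was low on both knockouts 1 and 3. Knockout 3 was also the lowest knockout array for Ddi2, Mafg, Mafk and Bach1, but not for Keap1. The same held for the means of the satellite cell and fibro-adipogenic progenitor markers, but not of the other CNC and small Maf factors. This ordering is thus not particular to Nfe2l2 and its targets.

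Nfe2l2 minus Nfe2l1, centred, was 1.21, 0.06 and 0.45 in knockouts 1, 2 and 3 and -0.43, -0.11 and -1.19 in controls 1, 2 and 3. Every knockout array lay above every control array, by 1.15 on average (SD 0.59 in knockouts and 0.55 in controls, n = 3 and 3). This contrast was chosen after the values were seen and is given without a test.

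**Figure D4:**
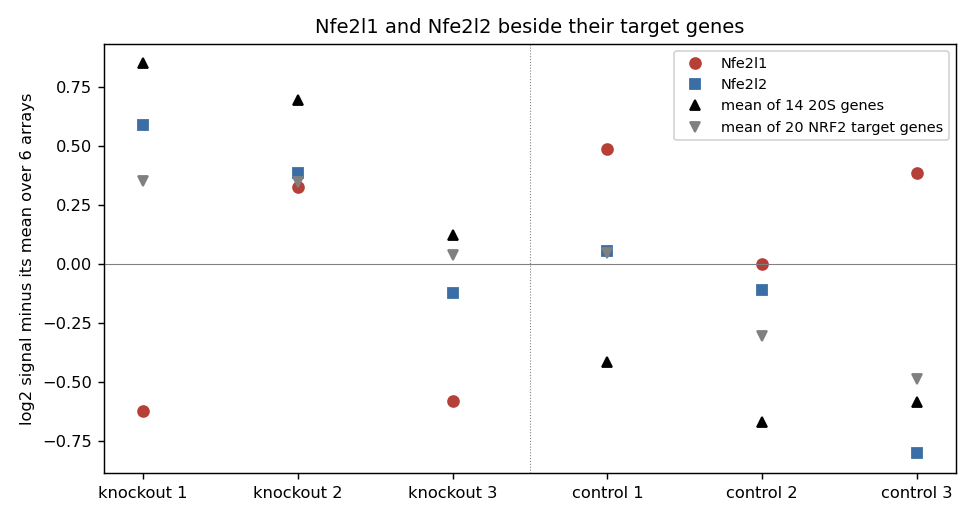
Log2 signal minus its mean over the 6 arrays (vertical axis) of Nfe2l1, Nfe2l2, the mean of the 14 20S genes and the mean of the 20 NRF2 targets on each array (horizontal axis; the dotted line parts knockouts from controls). The 20S mean lies above 0 on all 3 knockout arrays and below 0 on all 3 controls, while Nfe2l1 lies above 0 on knockout 2 and below it on knockouts 1 and 3.

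The arrays differ in their row on the slide, since knockouts 1 and 2 lay in row 1 and knockout 3 and all controls in row 2. With the row as a block, which here equals knockout 3 against the 3 controls, the difference was -0.87 for Nfe2l1 (adjusted p = 0.350, limma) and 0.16 for Nfe2l2. The same value was 0.08 for Mafk, -0.29 for Mafg, -0.54 for Bach1, -0.39 for Keap1 and -0.24 for Ddi2. Mafg thus changes sign, and the other 6 keep theirs. Row 1 holds knockout arrays only and gives no value. With array weights, Nfe2l1 shrank to -0.06, and Nfe2l2 and Mafk were 0.71 and 0.66, with adjusted p of 0.143 and 0.122 (limma). With normexp background correction, Nfe2l1 was -0.22 and Nfe2l2 0.42.

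**Figure D5:**
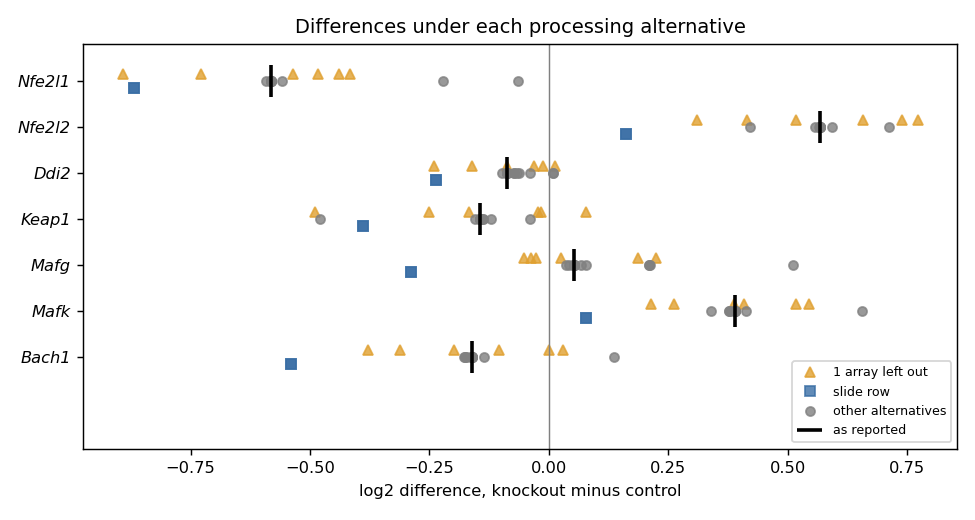
Log2 difference, knockout minus control (horizontal axis), of each tested regulator (rows) as reported (black bar) and under each processing alternative (triangles for 1 array left out, squares for the slide row as a block or row 2 alone, circles for the others). Nfe2l1 stays below 0 and Nfe2l2 and Mafk above 0 under all of them, while Ddi2, Keap1, Mafg and Bach1 have points on both sides.

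The promoters of the regulators were searched for the core of the antioxidant response element that NRF1 and NRF2 bind, TGACNNNGC, on both strands, in windows from 250 bases before to 50 after the RefSeq gene start (GRCm38.p6). All 8 regulators had a window. The motif was in the windows of Nfe2l2, Mafg and Mafk. It was in none of the 5 windows of Nfe2l1 and not in those of Ddi2, Ngly1, Keap1 and Bach1. Over all genes with a window, 13.99% of 27025 held it, as did 2 of 11 20S genes, 4 of 15 genes of the 19S particle and 8 of 20 NRF2 targets. The 250 bases upstream of the start of the 3 regulators that hold the motif are shown 5′ to 3′ on the strand of the gene, with the motif in capitals.
Nfe2l2: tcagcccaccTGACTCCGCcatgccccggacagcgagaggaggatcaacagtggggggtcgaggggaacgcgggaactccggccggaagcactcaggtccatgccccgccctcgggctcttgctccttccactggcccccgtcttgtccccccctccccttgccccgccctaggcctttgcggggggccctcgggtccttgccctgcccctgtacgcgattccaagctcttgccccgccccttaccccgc
Mafg: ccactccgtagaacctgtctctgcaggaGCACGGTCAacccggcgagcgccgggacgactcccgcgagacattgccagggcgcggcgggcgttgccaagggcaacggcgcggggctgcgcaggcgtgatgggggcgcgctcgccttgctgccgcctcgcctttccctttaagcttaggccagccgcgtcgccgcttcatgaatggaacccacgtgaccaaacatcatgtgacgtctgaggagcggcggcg
Mafk: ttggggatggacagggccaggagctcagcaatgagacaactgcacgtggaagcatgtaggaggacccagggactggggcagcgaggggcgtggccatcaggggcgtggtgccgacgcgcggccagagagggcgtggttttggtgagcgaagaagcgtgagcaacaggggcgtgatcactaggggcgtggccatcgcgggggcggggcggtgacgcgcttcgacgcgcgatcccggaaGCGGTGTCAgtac
These lie at chr2:75704664-75704913 (minus strand), chr11:120633548-120633797 (minus strand) and chr5:139791286-139791535 (plus strand). In Nfe2l2 the motif starts 240 bases before the gene start and reads on the strand of the gene. In Mafg and Mafk it reads on the opposite strand, so the capitals show its reverse complement, which ends 214 bases before the start in Mafg and 5 bases before it in Mafk. A match is a description of these letters and not a binding site.

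By likeness over the 6 arrays, measured as the root mean square distance between centred log2 signals among 15535 other genes, Nfe2l1 lay nearest to B430316J06Rik (0.0853), Sestd1 (0.119) and Nkx1-1 (0.120). Nfe2l2 lay nearest to Arl15 (0.0860), Jade2 (0.0866) and Txn1 (0.0966), which encodes thioredoxin. For Txn1 the centred signal was 0.55, 0.42 and -0.15 in knockouts 1, 2 and 3 and -0.08, -0.12 and -0.62 in controls 1, 2 and 3. Its knockout 3 lay among the controls, like that of Nfe2l2, which follows from the choice of Txn1 by likeness. With 6 arrays that share their scaling, these distances describe the samples only.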

How the data were processed

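Each scanner file holds linear intensity of 1 array, deposited by the authors, and its processed signal had been background-corrected within the array, per the file headers, with Feature Extraction of Agilent (10.7.1.1 in the headers and 9.5.1.1 in the submitters' processing notes). The deposited value table has intensity columns with the same quantiles on every array (median 17.7) and served as an alternative. Here the processed signal was divided by its 75th percentile on that array and put on the log2 scale, with control spots and outlier flags left out and spots of a probe averaged. No spot was saturated (0 on every array). Probes entered the test if all 3 arrays of either group had them well above background, and the brightest probe stood for a gene name. Of 55681 probes, 52937 had a gene name, and unnamed probes were left out. Names came from the array files, and 2838 were updated through transcript accessions with a RefSeq table of assembly GRCm38.p6. This gave 17952 genes from 24762 probes.

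Groups were compared in limma 3.58.1 (lmFit, then eBayes) under R 4.3.3, with the package data.table in version 1.17.8, 2-sided, with Benjamini-Hochberg adjustment and a threshold of 0.05. The number of arrays limits the precision, and the median SE over all genes was 0.28 on the log2 scale. The limma fit was checked with simulated data of independent normal values. These had no slide row and no difference in array quality, so the check does not cover such effects. Each array comes from a separate mouse, per the labels. Alternatives were another background correction, normalization, filter, probe choice and moderation, the deposited table, the replicate number or the slide row as a block, row 2 alone, an ordinary 2-sample test, and each array left out. Named genes are the 8 regulators, Psmc4, the 2 genes of each list with the smallest p in each direction, all genes of a list of at most 5, and the 3 genes most like Nfe2l1 and Nfe2l2. Hba-a1 and the other red blood cell markers were named after their values were seen, and 1 further marker is not reported here. The members and lists were chosen with earlier results of these data known.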

Additional observations from a re-analysis of the deposited data

How the results depend on the processing

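No regulator was called under any alternative run (0 in each, limma and the ordinary test). At an unadjusted p under 0.05, 1 regulator passed with the replicate block, 1 with knockout replicate 2 left out and 2 with array weights (limma). Over all genes, 1347 of 17952, 1072 of 18236 and 3713 of 17952 passed in those settings. Row 2 alone, with 1 knockout array, is left out of these counts. Over all genes the count called was 0 as reported, 1 with quantile normalization, 1 with the deposited table, 2 with median scaling, 8 with an intensity trend and robust moderation and 225 with array weights. It was 0 to 0 with each array left out, 0 with the ordinary test (1012 at an unadjusted p under 0.05) and 0 with the replicate number as a block. Between arrays of the same replicate number, the correlations of deviations from the group mean were 0.07, -0.02 and 0.09. The best-matching control was control 1 for knockouts 1 and 2 and control 3 for knockout 3. With 3 arrays in each group, these values cannot decide whether the replicate numbers pair the samples.

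With array weights, Nploc4, Vcp, Sqstm1, Psmb3, Psma1, Psmc6, Psmd3, Blvrb and Me1 were among those called, and Psmb3 also with the intensity trend. Some directions turned, and the cause was not tested. Bach1 was 0.14 with array weights and -0.38 to 0.029 with each array left out. Ddi2 was 0.0094 with normexp, 0.0090 at its other probe and -0.24 to 0.013 with arrays left out. Keap1 ranged from -0.49 to 0.078 and Mafg from -0.053 to 0.22 with arrays left out, and Mafg was -0.29 both with the slide row as a block and in row 2 alone. With arrays left out, Bach2 ranged from -0.64 to 0.11, Maff from -0.14 to 0.027, Slc40a1 from -0.39 to 0.24 and Taldo1 from -0.25 to 0.18. Maff was 0.082 and Taldo1 0.30 with array weights, and Gsta3 was 0.65 with the slide row as a block and in row 2 alone. Nfe2l1 kept its sign, from -0.89 to -0.42 with arrays left out, as did Nfe2l2, from 0.31 to 0.77, and Mafk, from 0.21 to 0.55. The 20S median was 0.64 with the slide row as a block. The excess of Nfe2l2 over Nfe2l1 in knockouts ranged from 0.83 to 1.41 with arrays left out and was 0.64 with normexp, a contrast added after the data were seen. Signal over background limits Ngly1.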
